A study of Mus musculus with 24 samples.

Results

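Unpolarized macrophages grown from the bone marrow of mice that had gone through sepsis (M0 post-sepsis, 4 arrays) were set against macrophages polarized toward M2 from naive marrow (M2, 4 arrays). The question was how far the unpolarized post-sepsis cells resembled M2 cells. These 8 of the 24 arrays of the series were chosen by the culture named in their labels. All mice were C57BL/6 males aged 10 weeks, and marrow progenitors were isolated by adhesion. They were grown for 7 days in RPMI with 20% L929 supernatant, a source of macrophage colony-stimulating factor, and 10% FBS. Post-sepsis marrow was taken 14 days after the induction of sepsis, and its cultures received no polarizing cytokine. The M2 cultures came from naive mice and, per the label, received IL-10 at 20 ng/mL at day 3. How sepsis was induced is not given in the sources used here. The 2 groups thus differed in both the donor mice and the cytokine, and the parts of these in a direct difference cannot be told apart. Unpolarized cultures of naive marrow (M0 naive, 4 arrays) are therefore printed beside them. M1 cultures (4 arrays), which had received 50 ng/mL of interferon-gamma plus 10 ng/mL of lipopolysaccharide at day 3, entered the same fit only to estimate the spread. Each group was the best 4 samples out of 2 experiments of 3 samples each. Which experiment a sample came from was not stated, so p-values measure the spread between chosen samples, part of which may be technical.

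Macrophages respond to interleukin-4 and interleukin-13 through the transcription factor STAT6. That response, called alternative or M2 activation, is known in the mouse for arginase 1 (Arg1), the secreted protein Relmα (Retnla) and the chitinase-like protein Ym1 (Chil3). Interleukin-10 acts through STAT3 and is known for damping inflammatory genes, and cells treated with it are also often called M2. Type I interferon acts at a short promoter element, and macrophages keep a low tonic level of this response at rest. Macrophages after sepsis are known for weaker inflammatory responses, for which an M2-like state has been discussed.

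Levels are log2 signals relative to the 75th percentile of the same array, so that 0 is that percentile, and a level is compared only with the same gene's level on other arrays. Differences are log2 values, M0 post-sepsis minus M2, ± the standard error of the limma fit, with n = 4 arrays per group. "Rose" and "fell" say that a gene passed limma's test at an adjusted p of 0.05 over the 29766 genes tested. Of these 16875 had a gene name, and 12891 were single probes without one, counted as genes here. Shares of all genes below are over both kinds, while the lists hold named genes only. A gene entered only if above background on 3 or more M0 post-sepsis arrays or 3 or more M2 arrays. A gene was counted as alike in both groups only where the 95% interval of its difference lay inside 2-fold either way. The 75th percentile of signal was 236.5 to 479.7 on the M0 post-sepsis arrays and 387.5 to 635.3 on the M2 arrays, with 57.5% to 65.7% and 58.3% to 70.0% of probes well above background. The arrays lay on 3 slides, and slides 2 and 3 held arrays of both groups, M0 post-sepsis replicates 1 and 3 with M2 replicate 3 on slide 2, and M0 post-sepsis replicates 2 and 4 with M2 replicate 1 on slide 3. Each value within a slide thus rests on 1 M2 array. M0 post-sepsis replicate 3 had the lowest 75th percentile and stood apart from the others at -161 on the first principal component, so counts that change by much without it are given. All 17 macrophage markers were measured, and their summed linear signal ran from 1118 to 1444 in M0 post-sepsis and from 1665 to 1914 in M2 cultures, relative to the 75th percentile. For the T and NK cell markers, 11 of 16 measured, the sums were 9.51 to 24.9 in M0 post-sepsis and 10.6 to 23.3 in M2 cultures, and for the B cell markers, 8 of 11 measured, 6.18 to 17 and 4.3 to 11.4. For the neutrophil markers, 15 of 17 measured, they were 191 to 428 in M0 post-sepsis and 272 to 634 in M2 cultures. In such bulk RNA, fewer cells of a type and less RNA per cell cannot be told apart.

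M0 post-sepsis cultures differed from M2 cultures in 5657 of 29766 genes (19.0%), of which 3374 rose (11.3%) and 2283 fell (7.67%). List counts below are to be read against these shares. In 10943 genes (36.8%) the interval placed the 2 groups within 2-fold of each other, 166 of them also called, and 13332 genes were neither called nor shown alike. The arrays of the 2 groups did not overlap in 5923 genes (19.9%). The median size of the difference was 0.47, beside 0.32 for M0 post-sepsis minus M0 naive and 0.37 for M2 minus M0 naive. Against M0 naive, 3466 genes passed in M0 post-sepsis cultures (11.6%; 5.94% higher and 5.70% lower) and 3421 in M2 cultures (11.5%; 4.82% higher and 6.67% lower). These 3 comparisons share arrays pairwise, so their counts are given side by side and nothing more is drawn from them. With only the 8 arrays of the 2 groups in the fit, 3283 genes passed between M0 post-sepsis and M2 cultures. Centring arrays on their median in place of the 75th percentile moved the median difference of all genes to -0.12, against 0.08, and the share of calls that were higher in M0 post-sepsis to 47.4%, against 59.6%.

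**Figure D1:**
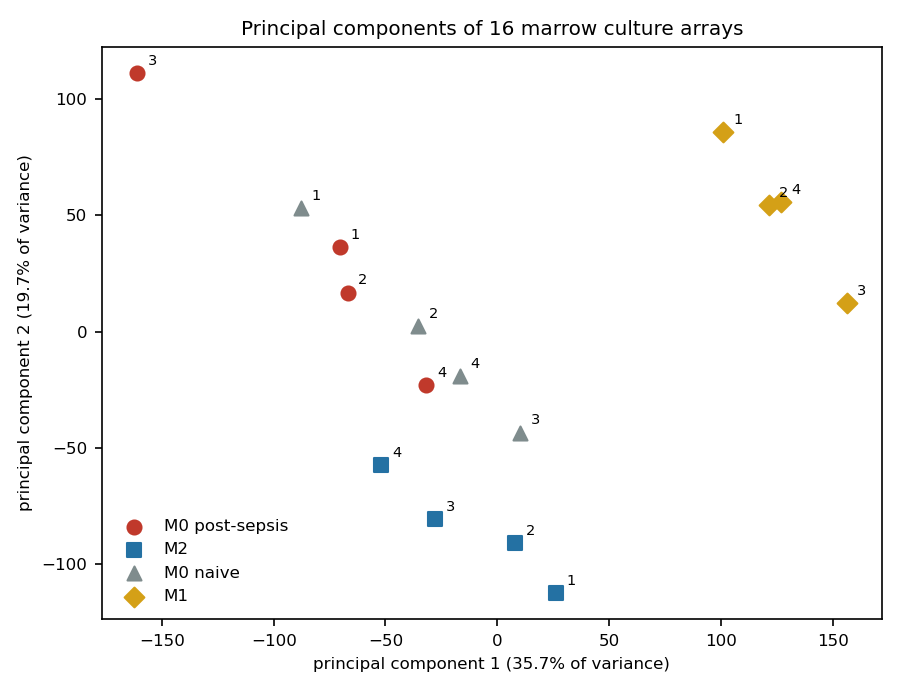
First and second principal components of the 16 marrow culture arrays over all genes tested, with the share of variance on each axis and the replicate number beside each point. The M2 arrays lie between -112.3 and -57.3 on the second component, below the M0 post-sepsis arrays at -22.9 to 111, and the M0 naive arrays run from -43.4 to 53.1 between them with overlap.

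Arrays of the 2 groups correlated with each other at a median of 0.931 (range 0.84 to 0.954, 16 pairs). Arrays within M0 post-sepsis correlated at a median of 0.942 (0.889 to 0.985, 6 pairs), and within M2 at 0.968 (0.951 to 0.984, 6 pairs). M0 post-sepsis and M0 naive arrays correlated at a median of 0.95 (0.859 to 0.974, 16 pairs). These are correlations across genes within pairs of arrays, and genes are not independent replicates.

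Genes of alternative activation had the largest median difference of the lists of gene functions. The lists were chosen with earlier results of these data known, so this rank is a description. Of 27 listed genes of the IL-4 type response 26 were measured, and 23 of them fell in M0 post-sepsis relative to M2 cultures, against 7.67% of all genes. Cd209a rose, and the other 2, Mrc1 and Il4ra, were alike by the interval, both borderline. The list's median difference was -4.11, against 0.08 over all genes, and it was -4.00 within slide 2 and -4.43 within slide 3. The same 26 genes stood in M2 minus M0 naive at a median of 4.43, with 23 higher and 3 not called. In M0 post-sepsis minus M0 naive they stood at a median of -0.06, with 5 higher, 6 lower and 15 not called. Over all genes, 4.82% were higher in M2 minus M0 naive. In M0 post-sepsis minus M0 naive 5.94% of all genes were higher and 5.70% lower.

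Retnla, a secreted protein of alternatively activated macrophages, measured -5.83, -6.81, -2.16 and -6.31 in the M0 post-sepsis cultures, against 9.85, 10.06, 9.55 and 9.88 in the M2 cultures. It was above background on 1 of 4 M0 post-sepsis arrays and on every M2 array, and the groups lay far apart. The fitted difference was -15.11 ± 0.70 (adjusted p = 9.8e-10), whose size is uncertain at so dim a level. In M0 naive cultures it was at 1.39 ± 0.34 (SD, n = 4), above the M0 post-sepsis level by a called difference (M0 post-sepsis minus M0 naive, -6.67). Arg1, the enzyme that splits arginine into ornithine and urea, measured -4.59, -4.88, -4.64 and -4.39 in M0 post-sepsis, against 5.79, 5.17, 5.99 and 5.67 in M2 cultures. It was not above background on any M0 post-sepsis or M0 naive array, and was at least 1243-fold lower in M0 post-sepsis than in M2 cultures (adjusted p = 8.7e-12). That p rests on M0 post-sepsis signals not above background, and Arg1 passed the filter through M2 alone. Chil3, the chitinase-like protein Ym1, measured 1.16, 2.07, 1.20 and 1.76 in M0 post-sepsis, against 9.59, 9.69, 9.30 and 9.69 in M2 cultures, a difference of -8.02 ± 0.22 (adjusted p = 3.0e-12). For Arg1 and Chil3 too, each M0 post-sepsis array lay below each M2 array. Retnla, Arg1 and Chil3 are among the 15 largest falls given below, for which such non-overlap was a condition of choice.

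The eosinophil-attracting chemokine Ccl24 fell by 8.28 on the log2 scale (± 0.20). The eosinophil-associated ribonuclease Ear2 differed by -8.13 ± 0.17, and its relatives share sequence, so probes of this family may share signal. Cish, a feedback inhibitor of cytokine receptors that signal through STAT5, was at -7.92 ± 0.20. Pdcd1lg2, which encodes the PD-1 ligand PD-L2, was at -6.03 ± 0.30, and the β-glucan receptor Clec7a at -4.96 ± 0.21. Ccl24 and Cish were above background on 3 of 4 M0 post-sepsis arrays. The chemokine Ccl22, above background on no M0 post-sepsis array and on every M2 array, was at least 14.2-fold lower in M0 post-sepsis. Ccl17, the other CCR4 ligand, was at -3.86 ± 0.46 and above background on 2 of 4 M0 post-sepsis arrays.

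Several members departed from this pattern. Mrc1, the mannose receptor, measured 5.96, 6.57, 5.81 and 6.34 in M0 post-sepsis, against 6.80, 6.37, 6.70 and 6.65 in M2 cultures. The groups overlapped, and the difference of -0.46 had a 95% interval of -0.96 to 0.05, whose farther bound reached 1.46 in size when arrays were centred on their median and passed 1 without several single arrays, so likeness within 2-fold was borderline. Both were above the M0 naive level of 4.41 ± 0.29 (SD, n = 4), by 1.76 in M0 post-sepsis and 2.22 in M2 cultures. The lectin Clec10a differed by -0.93 ± 0.20 between M0 post-sepsis and M2 cultures (adjusted p = 0.00425, and 0.0535 centred on array medians) and stood above M0 naive in both, by 1.04 and 1.97. Fn1, fibronectin, fell by 7.14 (± 0.27), yet it was 2.26 above M0 naive in M0 post-sepsis, beside 9.40 in M2 cultures. The integrin Itgax (CD11c) differed by -4.83 ± 0.21 from M2, and by 1.71 from M0 naive in M0 post-sepsis, beside 6.54 in M2 cultures. The receptor for IL-4 itself, Il4ra, was alike in both (-0.22, interval -0.65 to 0.21), although another of its probes stood at 1.08 and the bound reached 1.15 when arrays were centred on their median and 1.67 with the mean of its probes, so its likeness too was borderline. Cd209a, a lectin of dendritic cells and monocytes, went the other way: it was above background on all 4 M0 post-sepsis arrays and on none of the M2 or M0 naive arrays, at least 10.1-fold higher in M0 post-sepsis than in M2 cultures and at least 11.6-fold higher than in M0 naive.

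**Figure D2:**
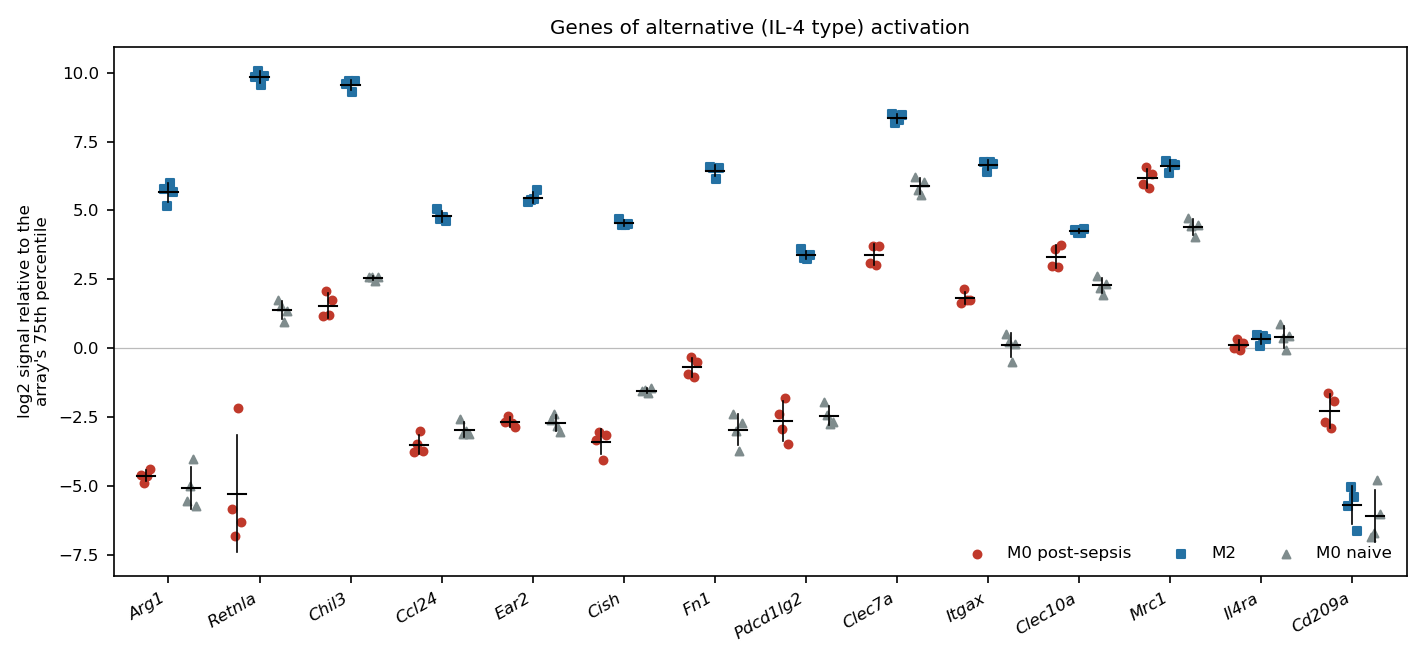
Levels of 14 genes of alternative activation on every array, as log2 signal relative to the array's 75th percentile, with M0 post-sepsis in red, M2 in blue and M0 naive in grey, and bars at the mean ± SD (n = 4). From Arg1 to Itgax the M2 arrays lie above all others, while Mrc1, Clec10a and Il4ra lie close together in M0 post-sepsis and M2 cultures and Cd209a is high in M0 post-sepsis alone.

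STAT6 is known to bind palindromes of TTC and GAA with a short gap between them. This pattern (TTC, any 4 bases, GAA), which reads the same on both strands and was chosen after the values were seen, occurred within the 250 bases before the start site in 5 of the 19 listed IL-4 type genes with a promoter in the RefSeq table, and in 1826 of 27025 promoters (6.76%). The following stretches of 3 genes that fell, read on the gene's own strand, are shown because they hold such a match (capitals), and a match is a description of letters only. They come from RefSeq on build GRCm38.p6, for Retnla at chr16:48842444-48842493 (plus strand), for Clec7a at chr6:129472881-129472930 (minus strand) and for Pdcd1lg2 at chr19:29410817-29410866 (plus strand), all upstream of the gene.
Retnla: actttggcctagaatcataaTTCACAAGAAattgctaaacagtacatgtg
Clec7a: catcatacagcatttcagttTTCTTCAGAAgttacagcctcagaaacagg
Pdcd1lg2: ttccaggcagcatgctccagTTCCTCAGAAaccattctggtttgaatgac

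The 15 largest falls were dominated by genes high in M2 cultures, and they include Retnla, Arg1, Chil3, Ccl24, Ear2 and Cish, already given above. All 15 were higher in M2 than in M0 naive cultures, and in M0 post-sepsis minus M0 naive 6 were lower and 9 not called. These counts are a description, because the same arrays served to choose the genes, which favours high M2 and low M0 post-sepsis levels. Rbp4, the plasma carrier of retinol, was above background on no M0 post-sepsis array and was at least 3856-fold lower in M0 post-sepsis than in M2 cultures, which measured 6.16, 5.87, 5.93 and 5.91. Tmem26, a membrane protein, was at least 708-fold lower, the ribonuclease Ear12 at least 295-fold and the RNA helicase Ddx4, known from germ cells, at least 235-fold. Bex1, known from neurons and above background on 3 of 4 M0 post-sepsis arrays, differed by -10.51 ± 0.44, the ribonuclease Rnase2a by -9.93 ± 0.28, the chitinase-like Chil4, above background on 1 of 4 M0 post-sepsis arrays, by -8.80 ± 0.31 and the monocyte chemokine Ccl8 by -8.05 ± 0.22. Of the 12 genes with the largest M2 over M0 naive difference, M0 post-sepsis was higher than M0 naive in 1, Fn1, lower in 3 and not called in 8. The fatty acid receptor Ffar4 was among the 12, at least 117-fold lower in M0 post-sepsis than in M2 cultures.

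The 15 largest rises were mostly genes that stood low in M2 cultures. In M2 minus M0 naive, 14 of the 15 were lower, and in 7 no M2 array was above background. In M0 post-sepsis minus M0 naive 8 were higher and 7 not called. The choice of these genes used the same arrays, which favours low M2 and high M0 post-sepsis levels, so these counts are a description. Dusp6, a phosphatase that switches off ERK kinases, measured 4.80, 5.32, 4.98 and 5.10 in M0 post-sepsis, against -0.06, -0.83, -0.15 and -0.15 in M2 cultures. All M0 post-sepsis arrays lay above all M2 arrays, as the choice of the 15 required. The difference was 5.35 ± 0.19 (adjusted p = 7.6e-11), with M0 naive between them at 2.14 ± 0.20 (SD, n = 4). Cx3cr1, the fractalkine receptor of monocytes and resident macrophages, measured 0.28, 0.94, 0.56 and 0.67 in M0 post-sepsis, against -5.05, -3.47, -4.32 and -4.69 in M2 cultures, where 2 of 4 arrays were above background. The 95% interval of its difference was 4.32 to 5.67, with M0 naive at 1.29, and its 3 probes ran from 3.58 to 6.39.

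The exception among the 15, not lower in M2 than in M0 naive, was Mgarp, a mitochondrial protein induced by hypoxia. It measured -0.92, -0.54, -1.38 and -0.21 in M0 post-sepsis, against -6.65, -5.95, -6.35 and -6.51 in M2 cultures. It was above background on each M0 post-sepsis array and on no M2 or M0 naive array, and was at least 42.5-fold higher in M0 post-sepsis than in M2 cultures (adjusted p = 5.0e-10). That p rests on M2 signals not above background, and Mgarp passed the filter through M0 post-sepsis alone. The synphilin gene Sncaip was at least 60.5-fold higher than in M2 cultures, the cytochrome Cyp2s1 at least 59.8-fold, the Fc receptor-like Fcrl1 at least 57.6-fold, the integrin Itga8 at least 33.9-fold and the lectin-like receptor Klra2 at least 24.5-fold. The progesterone receptor Pgr was at least 26.7-fold higher, but its differences were 7.64 within slide 2 and 3.41 within slide 3. F13a1, which encodes a chain of coagulation factor XIII and is also known as a marker of alternative activation, rose by 4.93 ± 0.26. It was not counted in the list of the IL-4 type response. The co-stimulatory ligand Icosl rose by 4.87 ± 0.23, with 3 of 4 M2 arrays above background. Egln3, an oxygen-sensing prolyl hydroxylase, rose by 5.19 ± 0.29 with 2 of 4 M2 arrays above background.

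The label names IL-10 as the M2 cytokine, so genes known to respond to it were counted as well. Of 34 listed genes 33 were measured. In M0 post-sepsis relative to M2 cultures 7 rose and 14 fell, against 11.3% and 7.67% of all genes. Another 8 were alike, against 36.8% of all genes, and 4 were undecided, with a median of -0.36 (-0.92 within slide 2, -0.23 within slide 3). Against M0 naive, 6 of the 33 were higher and 16 lower in M0 post-sepsis, where 5.94% of all genes were higher and 5.70% lower. In M2 cultures 8 were higher and 9 lower, where 4.82% of all genes were higher and 6.67% lower. The median of M2 minus M0 naive was -0.16 for this list, beside 4.43 for the IL-4 type list, with 23 of 26 higher. Whether the M2 cultures had received the cytokine on the label was not tested. Centred on array medians, the median of M0 post-sepsis minus M2 was -0.56. Relative to M2, the scavenger receptor Stab1 rose by 4.23 ± 0.22, the lipopolysaccharide co-receptor Cd14 by 3.21 ± 0.21, the decoy IL-1 receptor Il1r2, above background on 3 of 4 M2 arrays, by 2.23 ± 0.24 and the high-affinity IgG receptor Fcgr1 by 2.02 ± 0.19. The repressor Nfil3 differed by -2.57 ± 0.21, the inhibitory IgG receptor Fcgr2b by -2.04 ± 0.28 and Zfp36, which destabilizes cytokine mRNAs, by -1.82 ± 0.23. The scavenger receptor Marco was alike in both groups (0.07, interval -0.36 to 0.50) and lower than M0 naive in both, at -1.83 in M0 post-sepsis and -1.90 in M2 cultures. IL-10 message itself (Il10) was higher in M0 post-sepsis, at -2.64, -3.13, -2.06 and -3.25, against -4.08, -4.11, -3.60 and -4.09 in M2 cultures (1.20 ± 0.25, adjusted p = 0.00288).

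Genes of classical, M1 activation were likewise lower in M0 post-sepsis than in M2 cultures in more cases than they were higher. Of 25 listed genes 19 were measured. Of these 3 rose and 11 fell, against 11.3% and 7.67% of all genes, and 5 did not pass, with a median of -1.15 (-1.38 within slide 2, -1.68 within slide 3). Ccl5, a T cell chemokine, measured -0.49, -0.17, -0.47 and -0.32 in M0 post-sepsis, against 4.94, 4.58, 4.69 and 4.58 in M2 cultures, a difference of -5.06 ± 0.18 (adjusted p = 5.7e-11). M0 naive stood above both at 7.04. Socs1, the inhibitor of interferon and IL-4 signalling, differed by -4.61 ± 0.15, the itaconate enzyme Acod1 by -3.73 ± 0.17, the guanylate-binding protein Gbp2 by -3.49 ± 0.20 and the transcription factor Irf1 by -1.97 ± 0.19. Nos2, the inducible nitric oxide synthase, was at -1.53 ± 0.16. Tnf went the other way, measuring 1.30, 2.10, 0.95 and 1.84 in M0 post-sepsis, against -0.56, -0.97, -0.70 and -0.71 in M2 cultures (2.28 ± 0.23, adjusted p = 4.5e-06). Il1b was alike in both groups (0.38, interval -0.05 to 0.81) and lower than M0 naive in both, at -3.05 in M0 post-sepsis and -3.43 in M2 cultures. Of 27 measured genes of the NF-kB and early response 12 fell, 1 rose and 14 did not pass. The transcription factor Egr2 was at -3.93 ± 0.25, Ier3 at -2.40 ± 0.21 and Junb at -1.92 ± 0.24.

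Transcripts of antigen presentation were lower in M0 post-sepsis than in M2 cultures for many genes of both classes of molecule. The share of all genes that fell was 7.67%. Against M0 naive, 5.94% of all genes were higher and 5.70% lower in M0 post-sepsis. In M2 cultures these shares were 4.82% and 6.67%. Of 10 measured MHC class II genes 8 fell and 2 did not pass (median -1.73, with -1.86 within slide 2 and -1.67 within slide 3). Cd74, the class II invariant chain, measured 2.77, 3.67, 2.48 and 3.15 in M0 post-sepsis, against 7.16, 6.59, 7.11 and 6.56 in M2 cultures (-3.84 ± 0.24, adjusted p = 3.1e-08). The peptide-exchange subunit H2-DMa differed by -3.25 ± 0.22, the class II chains H2-Aa by -2.85 ± 0.26, H2-Ab1 by -2.34 ± 0.22 and H2-Eb1 by -1.95 ± 0.20. In M2 minus M0 naive 7 of the 10 were higher and 3 not called, and in M0 post-sepsis minus M0 naive 1 was higher, 1 lower and 8 not called. Of 15 measured MHC class I genes 8 fell and 7 did not pass (median -1.26, -1.47 within slide 2 and -0.99 within slide 3). H2-K1 was at -1.34 ± 0.17, H2-D1 at -1.46 ± 0.21, H2-T23 at -1.79 ± 0.18 and the loading factor Tapbp at -1.85 ± 0.18, while the transporter Tap2 was alike in both (0.11, interval -0.34 to 0.57). Class I genes are near-identical in parts, so their probes may share signal. For this list M0 post-sepsis minus M0 naive had 8 lower and 7 not called, and M2 minus M0 naive 2 higher, 2 lower and 11 not called.

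**Figure D3:**
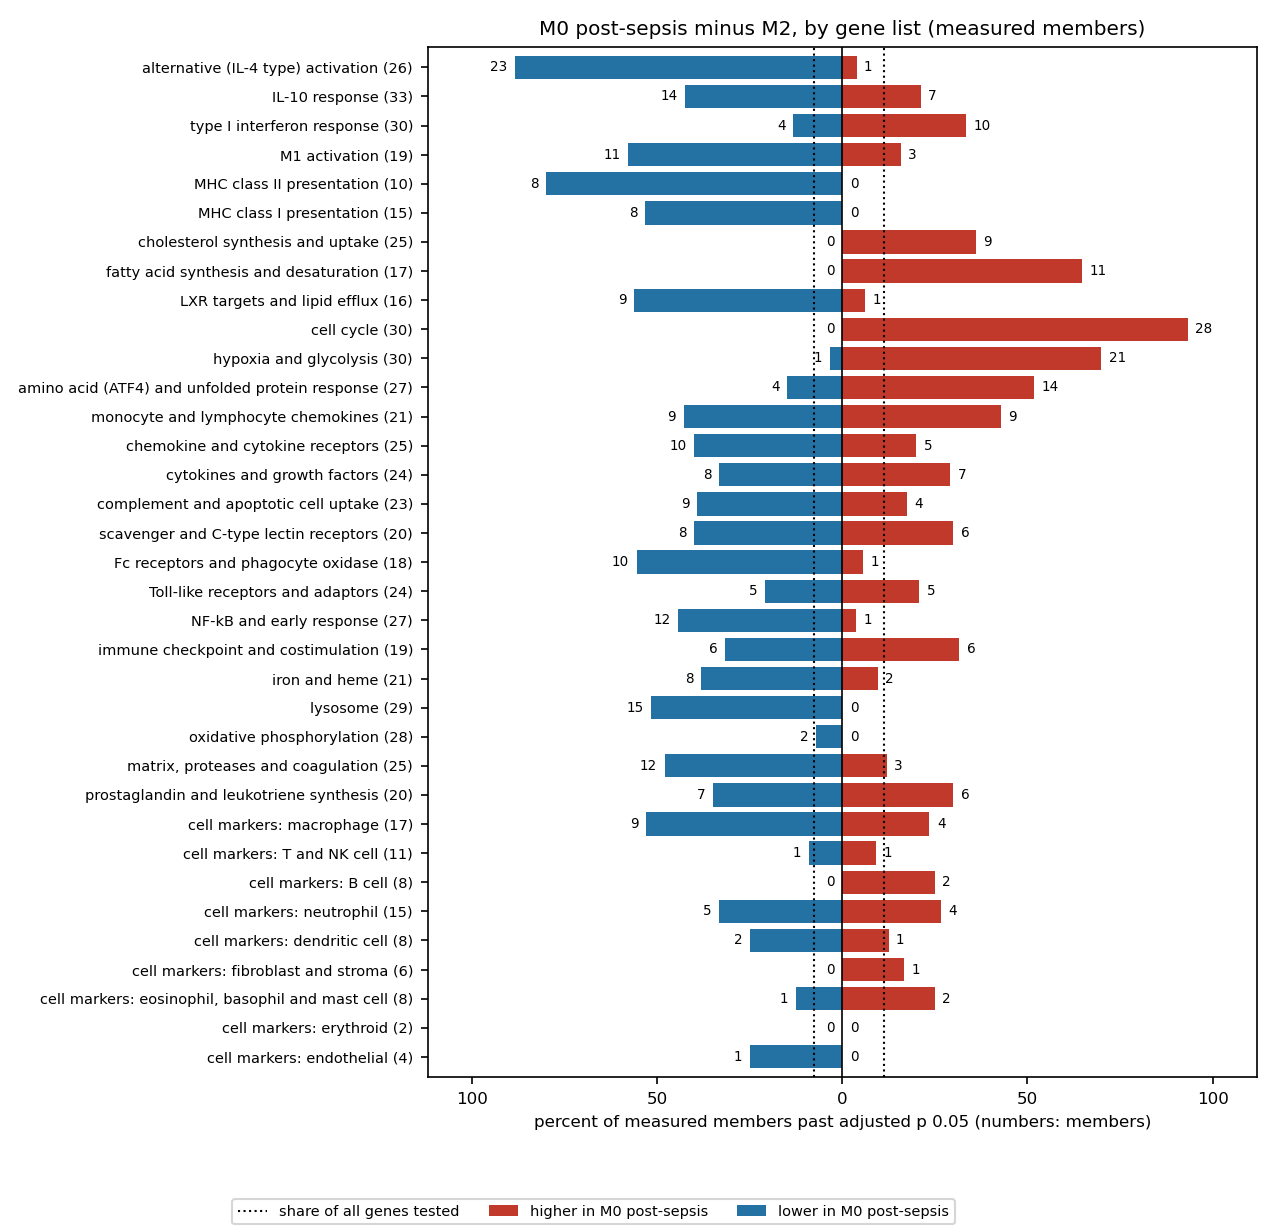
Share of the measured members of each gene list (number in brackets) that passed limma's test between M0 post-sepsis and M2 cultures, with lower in M0 post-sepsis to the left in blue and higher to the right in red, and the number of genes at each bar. Dotted lines mark the share over all genes tested, 7.67% lower and 11.3% higher. The IL-4 type list reaches farthest to the left, with 23 of 26, and the cell cycle list farthest to the right, with 28 of 30.

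Interferon genes stood below M0 naive in both M0 post-sepsis and M2 cultures, with smaller differences between the 2 groups. Of 30 type I interferon genes, all measured, 10 rose in M0 post-sepsis relative to M2 cultures, against 11.3% of all genes, and 4 fell, against 7.67%. Another 11 were alike, a share near the 36.8% of all genes, and 5 were undecided, with a median of 0.35 (0.24 within slide 2, 0.43 within slide 3). Centred on array medians, the median was 0.16, 1 rose and 2 fell, and Ifit3, Mx2 and Oasl1, named here, no longer passed (adjusted p = 0.0871, 0.126 and 0.0514). With only the 8 arrays in the fit, 3 rose and 3 fell. Against M0 naive, 27 of the 30 were lower in M0 post-sepsis (median -1.77) and 27 lower in M2 cultures (median -2.13), against 5.70% and 6.67% of all genes. Both of those comparisons use the same M0 naive arrays, so they are given side by side only.

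Ifit1, which binds viral RNA caps, measured -1.19, -0.72, -1.77 and -1.11 in M0 post-sepsis, against -1.06, -1.52, -1.23 and -1.20 in M2 cultures. The groups overlapped, with a difference of 0.06 (interval -0.42 to 0.54), and M0 naive stood at 1.61. Ifit3, of the same family, measured -0.08, 0.35, -0.41 and 0.27 in M0 post-sepsis, against -1.08, -1.50, -0.96 and -1.09 in M2 cultures (1.19 ± 0.20, adjusted p = 6.3e-04), with M0 naive at 3.71. Oas2, an activator of RNase L, rose by 1.82 ± 0.26 and the antiviral GTPase Mx2 by 0.91 ± 0.16. Usp18, the protease that removes ISG15, went the other way, at 0.52, 0.94, 0.52 and 0.57 in M0 post-sepsis, against 2.96, 2.90, 2.81 and 2.88 in M2 cultures (-2.25 ± 0.18, adjusted p = 3.5e-07). It did not differ by a called step between M2 and M0 naive (0.37). The nucleic acid sensor Zbp1 was at -1.81 ± 0.32 and Oasl1 at -0.91 ± 0.19, and the master regulator Irf7 had an interval of -0.27 to 0.72.

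The interferon-stimulated response element, searched as GAAA, any 2 bases, GAAA on both strands with overlapping matches allowed, lay within 250 bases before the start site of 9 of the 22 listed genes with a promoter in the RefSeq table, against 936 of 27025 promoters (3.46%). Stretches upstream of Ifit1, alike in both groups, and Ifit3, which rose, are shown with the matches in capitals, both on the plus strand of chromosome 19 in GRCm38.p6 and read on the gene's strand, Ifit1 at chr19:34640765-34640814 and Ifit3 at chr19:34583353-34583402. The element appears in them as its reverse complement (TTTC, any 2 bases, TTTC).
Ifit1: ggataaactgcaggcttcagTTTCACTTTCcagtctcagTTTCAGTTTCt
Ifit3: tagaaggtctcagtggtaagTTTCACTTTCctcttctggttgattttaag

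Genes of cholesterol synthesis and uptake lay above M0 naive in both groups. Of 25 genes, all measured, 9 rose in M0 post-sepsis relative to M2 cultures, against 11.3% of all genes, and 11 were alike, near the 36.8% of all genes, the other 5 being undecided (median 0.57, with 0.34 within slide 2 and 0.70 within slide 3). The count of 9 was 1 when arrays were centred on their median, where Sqle, Pmvk and Insig1 no longer passed (adjusted p = 0.147, 0.0718 and 0.0771), and 13 without M0 post-sepsis replicate 3. Against M0 naive, 23 were higher in M0 post-sepsis (median 1.88) and 21 in M2 cultures (median 1.40), against 5.94% and 4.82% of all genes, again from shared M0 naive arrays. Hmgcs1, the synthase at the head of the pathway, measured 5.41, 6.08, 5.43 and 5.71 in M0 post-sepsis, against 5.82, 5.40, 5.81 and 5.59 in M2 cultures. The groups overlapped with a difference of 0.01 (interval -0.44 to 0.45), each 1.67 above M0 naive. Sqle, squalene epoxidase, rose by 0.95 ± 0.17, Pmvk by 1.20 ± 0.22 and the sterol sensor partner Insig1 by 1.19 ± 0.22.

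Fatty acid genes stood higher in M0 post-sepsis. Among all genes, 11.3% rose, 7.67% fell and 36.8% were alike. Of 17 measured genes of synthesis and desaturation 11 rose and the other 6 were alike (median 1.01, with 0.74 within slide 2 and 1.05 within slide 3), and 5 rose when arrays were centred on their median, where Scd2 and Srebf1 no longer passed (adjusted p = 0.131 and 0.0675). Fads2, a desaturase of polyunsaturated fatty acids, measured 0.44, 1.30, -0.12 and 1.43 in M0 post-sepsis, against -2.33, -2.31, -2.01 and -2.18 in M2 cultures (2.97 ± 0.39, adjusted p = 5.6e-05). It was above background on no M0 naive array. The stearoyl-CoA desaturase Scd2 rose by 1.12 ± 0.22, and stood above M0 naive by 5.05 in M0 post-sepsis and 3.93 in M2 cultures. The elongase Elovl6 rose by 2.44 ± 0.33, the NADPH source Me1 by 2.13 ± 0.21, fatty acid synthase Fasn by 1.91 ± 0.23 and their regulator Srebf1 by 1.07 ± 0.17. Genes of lipid uptake and efflux under the receptor LXR went the other way, with 9 of 16 lower, 1 higher and 6 not called (median -0.78, -0.80 within slide 2 and -0.65 within slide 3). The transporter Abcg1 was at -1.70 ± 0.17, the LXRα gene Nr1h3 at -1.88 ± 0.19, the scavenger receptor Cd36 at -2.46 ± 0.29 and the fatty acid binding protein Fabp4 at -2.12 ± 0.22.

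**Figure D4:**
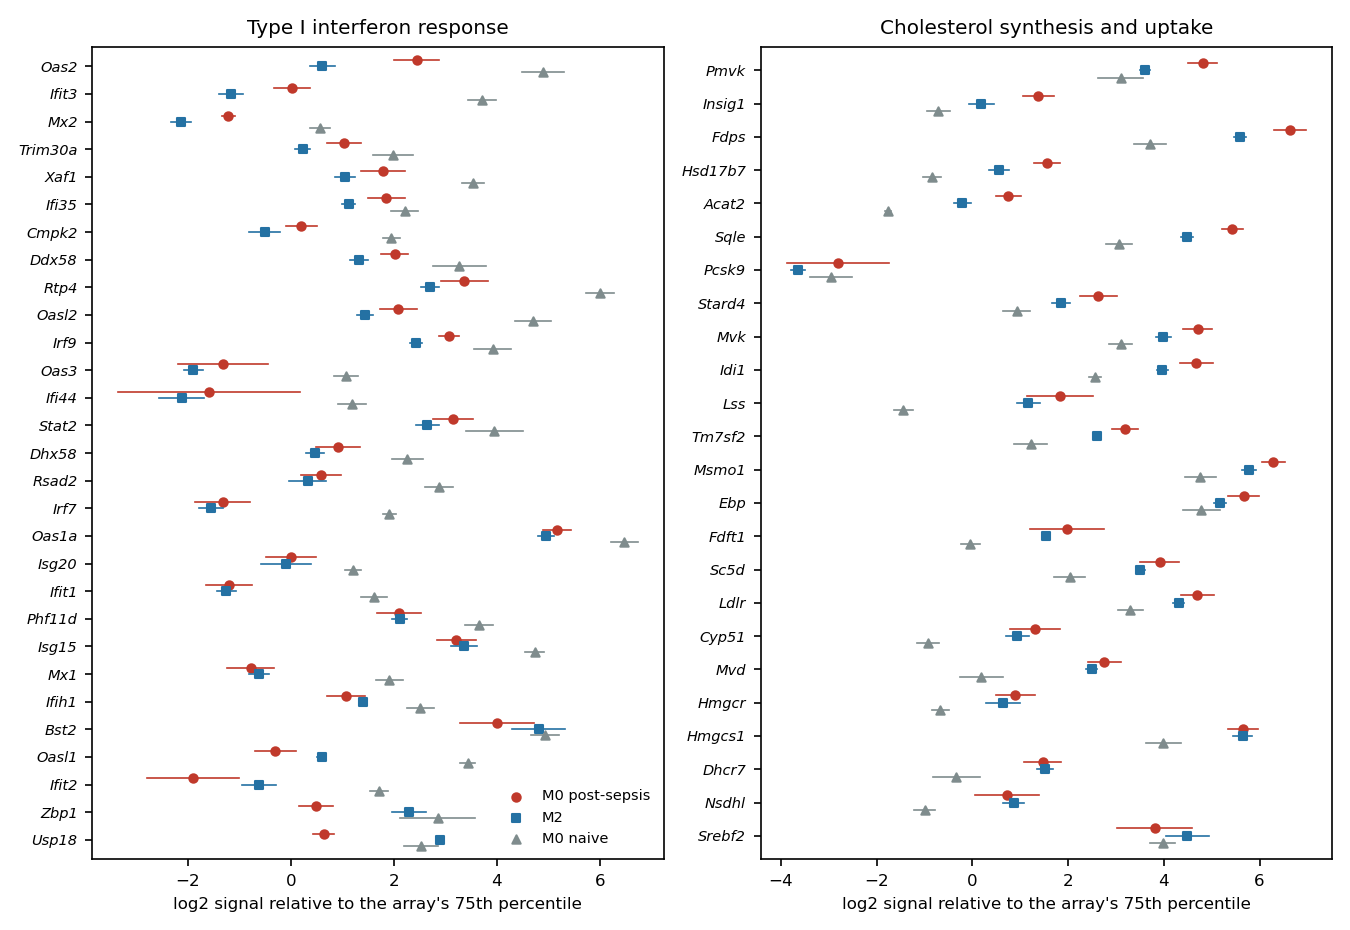
Means ± SD (n = 4 arrays) of members of the type I interferon list (left) and of the cholesterol list (right) as log2 signal relative to the array's 75th percentile, with M0 post-sepsis in red, M2 in blue and M0 naive in grey, and genes ordered by the difference between M0 post-sepsis and M2. M0 naive lies to the right of both groups for most interferon genes and to the left of both for most cholesterol genes, with Usp18 and Zbp1 at the lower end of the left panel.

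Chemokines that draw monocytes through CCR2 were above M0 naive in both groups and higher in M0 post-sepsis. Ccl2 measured 7.05, 7.70, 6.83 and 7.73 in M0 post-sepsis, against 5.78, 4.96, 6.04 and 5.78 in M2 cultures (1.69 ± 0.26, adjusted p = 2.5e-04). The arrays did not overlap, and M0 naive stood at 3.06. Ccl7 rose by 1.00 ± 0.25 and Ccl12 by 1.28 ± 0.22, and their differences from M0 naive were 4.55 and 4.23 in M0 post-sepsis, beside 3.55 and 2.95 in M2 cultures. Centred on array medians, neither of these 2 passed (adjusted p = 0.225 and 0.058), and with only the 8 arrays in the fit Ccl7 did not (adjusted p = 0.0769). Their receptor Ccr2 rose by 1.77 ± 0.32. In the whole chemokine list 9 of 21 measured genes rose and 9 fell, against 11.3% and 7.67% of all genes, and 3 were alike. When arrays were centred on their median, 5 rose. The inflammatory chemokine Ccl4 rose by 3.25 ± 0.17, and Cxcl1, which draws neutrophils, was at least 20-fold higher, above background on no M2 array. Platelet factor Pf4 was alike in both groups (-0.02, interval -0.41 to 0.37).

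Proliferation genes were the group most widely higher in M0 post-sepsis. Of 30 cell cycle genes, all measured, 28 rose and the other 2 did not pass, against 11.3% of all genes, with a median of 2.68 (2.17 within slide 2, 2.86 within slide 3). In M0 post-sepsis minus M0 naive 27 were higher, against 5.94% of all genes. In M2 minus M0 naive 11 were lower, against 6.67% of all genes, and 19 were not called. Mki67, the Ki-67 antigen of cycling cells, measured 5.07, 5.71, 4.94 and 5.74 in M0 post-sepsis, against 2.69, 2.16, 2.40 and 2.39 in M2 cultures (2.96 ± 0.22, adjusted p = 1.9e-07). The mitotic kinase Plk1 measured 4.61, 5.17, 4.46 and 4.68 in M0 post-sepsis, against 1.73, 1.41, 1.73 and 1.55 in M2 cultures (3.13 ± 0.22, adjusted p = 9.9e-08). In neither gene did the groups overlap, and M0 naive lay between them, at 3.15 and 2.48. The cyclin Ccnb2 rose by 3.11 ± 0.22, the survivin gene Birc5 by 3.04 ± 0.18 and the kinase Aurka by 2.96 ± 0.21. Pcna, the sliding clamp of DNA replication, was the exception that was alike in both (0.27, interval -0.12 to 0.67).

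Kit and 3 granule enzyme genes were higher in M0 post-sepsis, while the mast cell and neutrophil marker lists that hold them were mixed. For comparison, 11.3% of all genes rose and 7.67% fell. Kit, the stem cell factor receptor of progenitors and mast cells, measured -0.99, -0.45, -1.30 and -0.87 in M0 post-sepsis, against -4.61, -5.56, -4.38 and -5.03 in M2 cultures (3.99 ± 0.32, adjusted p = 4.3e-07), with 1 of 4 M2 arrays above background. The granule enzymes Ctsg, Mpo and Prtn3, made by granulocyte precursors, rose by 2.37 ± 0.19, 2.06 ± 0.31 and 1.58 ± 0.24, with 2 of 4 M2 arrays above background for Prtn3. Macrophage markers were in part lower: 9 of 17 fell, 4 rose and 4 did not pass (median -0.67, with -0.92 within slide 2 and -0.29 within slide 3), and 5 fell when arrays were centred on their median. The transcription factor Cebpa was at -3.12 ± 0.28 and the M-CSF receptor Csf1r at -1.15 ± 0.18, while lysozyme Lyz1 was alike (0.12, interval -0.31 to 0.55) and Aif1 too (0.14, interval -0.27 to 0.55). Of the neutrophil list 4 of 15 measured genes rose, 5 fell and 6 did not pass. Of the eosinophil, basophil and mast cell markers, 8 of 14 measured, 2 rose, 1 fell and 5 did not pass, and they summed to 3.16 to 6.25 in M0 post-sepsis and 3.69 to 20.1 in M2 cultures on the linear scale. The part of such cells in the differences of the proliferation genes was not tested.

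Metabolic genes followed. Of 30 measured genes of hypoxia and glycolysis 21 rose, 1 fell and 8 did not pass (median 1.09, with 0.88 within slide 2 and 1.23 within slide 3), and 14 rose when arrays were centred on their median. The glycolytic aldolase Aldoc measured 5.05, 5.68, 4.93 and 5.55 in M0 post-sepsis, against 2.60, 2.51, 2.51 and 2.56 in M2 cultures (2.76 ± 0.19, adjusted p = 9.8e-08), with no overlap and M0 naive at 3.24. Ankrd37, a target of the hypoxia-inducible factor, rose by 2.86 ± 0.21, the lactate exporter Slc16a3 by 2.64 ± 0.20 and the angiogenic factor Vegfa by 1.83 ± 0.24. The hexokinase Hk1 was alike in both (-0.02, interval -0.33 to 0.29). Of 28 genes of oxidative phosphorylation and the citric acid cycle 25 were alike within 2-fold, against 36.8% of all genes. Another 2 fell, near the 7.67% of all genes, and 1 was undecided. All 28 were above background on 3 or more arrays of each group, which does not hold for all genes tested. With normexp background correction 19083 of all genes were alike, against 10943. The part of signal level in the contrast was not tested. Ndufb8 of complex I was at 0.02 (interval -0.40 to 0.43) and malate dehydrogenase Mdh2 at 0.01 (interval -0.42 to 0.44). Ogdh, of the citric acid cycle, fell, and was at -2.08 ± 0.18 by its brightest probe and up to 0.10 by its others.

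Of 27 genes of the amino acid response under ATF4 and of the unfolded protein response 14 rose and 4 fell, against 11.3% and 7.67% of all genes. The other 9 did not pass (median 0.62, with 0.45 within slide 2, 0.79 within slide 3 and 0.35 with the mean of all probes of a gene). Asns, asparagine synthetase, measured 5.55, 6.05, 5.43 and 5.92 in M0 post-sepsis, against 2.77, 2.69, 2.39 and 2.77 in M2 cultures (3.08 ± 0.20, adjusted p = 4.9e-08), and M0 naive lay at the M2 level, at 2.75. The glutathione-degrading enzyme Chac1 rose by 2.97 ± 0.24, and of serine and glycine synthesis Psat1 rose by 2.75 ± 0.21, Shmt2 by 2.73 ± 0.26 and Psph by 2.20 ± 0.20. The probes of Psat1 ran from 0.87 to 2.75. The stress factor Atf3 went the other way, at -1.84 ± 0.25. Of the unfolded protein response, the folding factor Creld2 was alike in both groups, at 0.08 (interval -0.32 to 0.48).

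**Figure D5:**
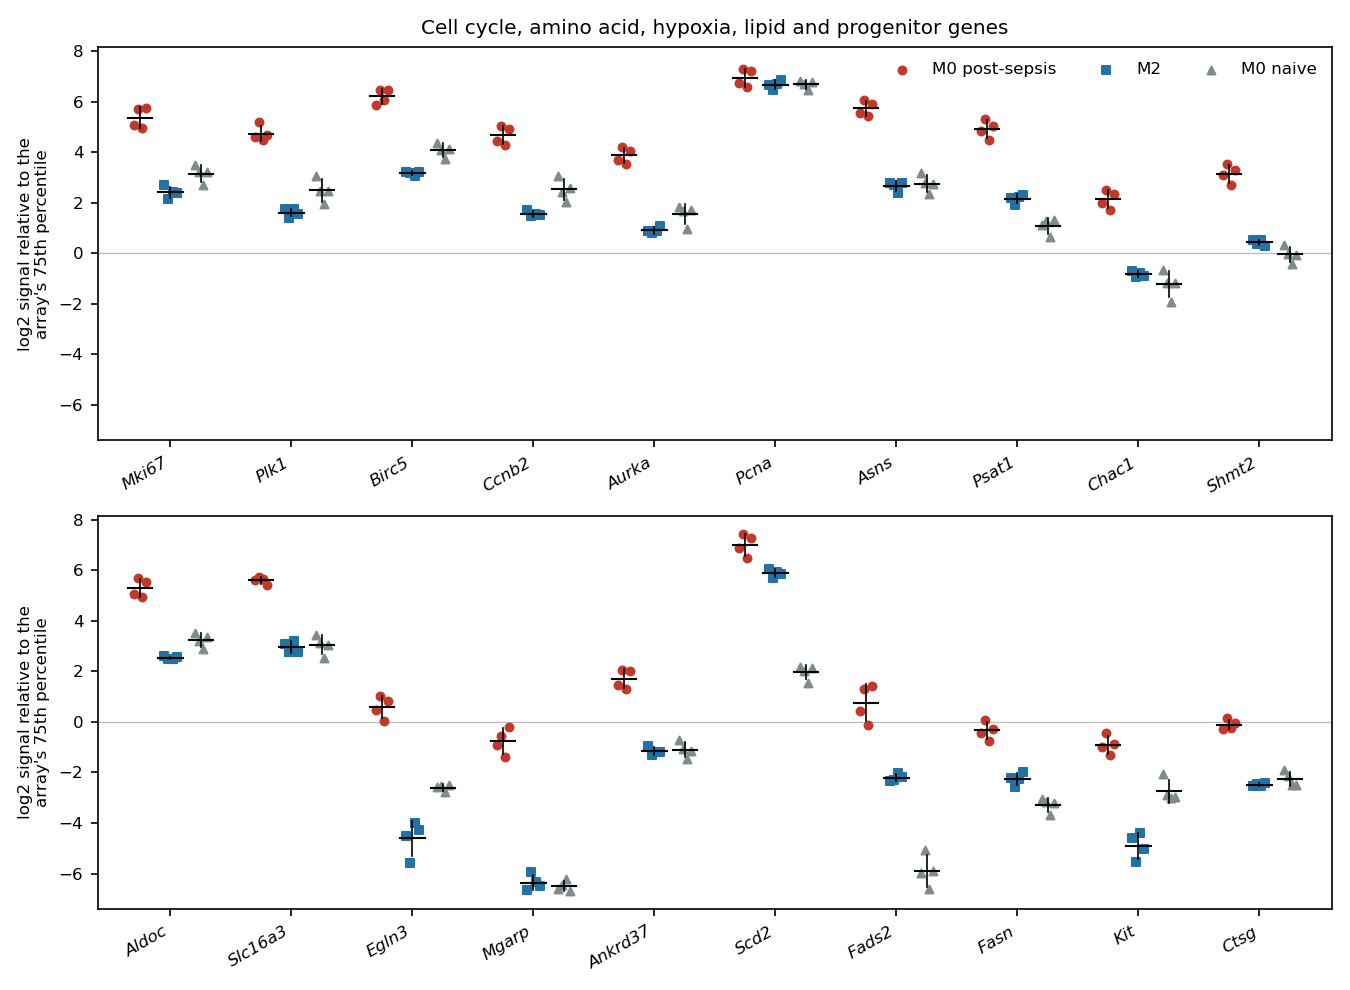
Levels of 20 genes of the cell cycle, the amino acid response, hypoxia and glycolysis, lipid synthesis and early myeloid cells on every array, as log2 signal relative to the array's 75th percentile, with M0 post-sepsis in red, M2 in blue and M0 naive in grey, and bars at the mean ± SD (n = 4). M0 post-sepsis lies above M2 in each gene except Pcna, where the groups overlap.

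Surface and secreted products for other cells divided. Each list here stands beside 11.3% of all genes that rose and 7.67% that fell. Of 19 measured genes of checkpoints and co-stimulation 6 rose, 6 fell and 7 did not pass. Cd274, which encodes PD-L1, measured 1.25, 1.80, 0.52 and 1.61 in M0 post-sepsis, against 5.04, 4.82, 4.83 and 4.76 in M2 cultures (-3.57 ± 0.26, adjusted p = 1.2e-07). Tnfsf9, the ligand of CD137 on T cells, measured 2.64, 3.02, 2.37 and 2.66 in M0 post-sepsis, against -1.70, -1.73, -1.94 and -2.02 in M2 cultures (4.52 ± 0.19, adjusted p = 3.3e-10). The groups did not overlap in either. Tnfsf14 (LIGHT) rose by 2.83 ± 0.24, with 3 of 4 M2 arrays above background, and the inhibitory receptors Lilrb4a (-0.00, interval -0.40 to 0.39) and Lair1 (0.00, interval -0.37 to 0.37) were alike. Of 24 measured cytokines and growth factors 7 rose and 8 fell. Csf1 was at -2.41 ± 0.20, Pdgfa at -2.16 ± 0.18 and Igf1 at -2.16 ± 0.18, with other probes of Igf1 as close to 0 as -0.80, and activin Inhba was at least 11.1-fold lower. Of 25 measured receptors 5 rose (3 when centred on array medians) and 10 fell, with the IL-1 receptor Il1r1 at least 16.8-fold lower, the shared chain Csf2rb at -3.55 ± 0.25, Il7r at -2.01 ± 0.21 and Cxcr4 at -1.16 ± 0.16.

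Receptors and products of uptake and defence divided in the same manner, where 11.3% of all genes rose and 7.67% fell. The complement receptor C5ar1 measured 4.36, 4.83, 4.28 and 4.47 in M0 post-sepsis, against -0.04, -0.45, -0.03 and -0.17 in M2 cultures (4.66 ± 0.20, adjusted p = 5.7e-10). Complement C3 measured 1.34, 2.17, 1.51 and 1.66 in M0 post-sepsis, against 6.13, 5.97, 5.92 and 5.79 in M2 cultures (-4.28 ± 0.22, adjusted p = 3.1e-09). All arrays of the 2 groups lay apart, in opposite directions for the 2 genes. In the list of complement and apoptotic cell uptake 4 of 23 measured genes rose, 9 fell and 10 did not pass. The bridging protein Mfge8 was at -2.98 ± 0.19, the uptake kinase Mertk at -1.46 ± 0.25, and its relative Axl was alike (0.13, interval -0.44 to 0.69) and lower than M0 naive in both, at -2.91 in M0 post-sepsis and -3.04 in M2 cultures. Among lectins and scavenger receptors, 6 of 20 rose (3 when centred on array medians) and 8 fell. The lectin Clec4e (Mincle) was at 2.06 ± 0.20, Clec4a3 at -3.22 ± 0.27, and the oxidized LDL receptor Olr1 was at least 18.5-fold lower. Of 18 Fc receptor and oxidase genes 10 fell, 1 rose and 7 did not pass, with the integrin Itgb2 at -1.93 ± 0.25, the oxidase subunit Cybb at -1.27 ± 0.21 and the lipid receptor Trem2 alike (-0.12, interval -0.46 to 0.22). Of 24 Toll-like receptors and adaptors 5 rose and 5 fell (1 fell with only the 8 arrays in the fit), Tlr2 at 1.96 ± 0.19, the cytosolic sensor Nod2 at 2.07 ± 0.23 and Tlr8 at -1.60 ± 0.23.

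Transcripts of iron handling and degradation were lower in M0 post-sepsis for most genes that passed, where 7.67% of all genes fell and 11.3% rose. The transferrin receptor Tfrc, which takes up iron, measured 0.73, 1.68, 0.20 and 1.74 in M0 post-sepsis, against 6.08, 5.53, 6.04 and 5.93 in M2 cultures (-4.81 ± 0.29, adjusted p = 2.1e-08). Ferroportin Slc40a1, which exports it, measured 4.00, 4.69, 3.81 and 4.18 in M0 post-sepsis, against 1.55, 1.11, 1.53 and 1.40 in M2 cultures (2.77 ± 0.22, adjusted p = 4.4e-07). The transcripts of this uptake receptor and this exporter thus differed in opposite directions, and M0 naive lay near M0 post-sepsis for both, at 1.26 and 4.73. In the list of iron and heme 8 of 21 measured genes fell, 2 rose and 11 did not pass, with ceruloplasmin Cp, above background on 3 of 4 M0 post-sepsis arrays, at -3.11 ± 0.32, the red pulp macrophage factor Spic at -2.02 ± 0.16 and ferritin Fth1 alike (0.18, interval -0.24 to 0.60). Of 29 lysosomal genes 15 fell and 14 did not pass (median -0.57, with -0.97 within slide 2 and -0.40 within slide 3). The proton pump subunit Atp6v0d2, known from osteoclasts and fused macrophages, differed by -5.22 ± 0.19, and the cathepsins Ctsk by -2.64 ± 0.23, Ctsl by -2.33 ± 0.20 and Ctsh by -1.97 ± 0.20. Cathepsin B (Ctsb) was alike in both, at -0.10 (interval -0.46 to 0.26).

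Matrix and lipid mediators completed the comparison, beside 11.3% of all genes that rose and 7.67% that fell. Of 25 measured matrix, protease and coagulation genes 12 fell, 3 rose and 10 did not pass (median -0.78, and -0.20 with normexp background correction). The macrophage elastase Mmp12 was at -3.64 ± 0.24 and Mmp19 at -3.08 ± 0.19, while the urokinase Plau rose by 2.47 ± 0.26. Of 20 measured genes of prostaglandin and leukotriene synthesis 6 rose (3 when centred on array medians), 7 fell and 7 did not pass. Alox5, the first enzyme toward leukotrienes, measured 0.43, 1.08, 0.12 and 0.72 in M0 post-sepsis, against -3.50, -3.46, -3.55 and -4.10 in M2 cultures (4.24 ± 0.32, adjusted p = 1.9e-07). On the prostaglandin side, cyclooxygenase 1 (Ptgs1) was at -3.91 ± 0.40, the prostaglandin E receptor Ptger2 at -3.55 ± 0.23, thromboxane synthase Tbxas1 at -1.80 ± 0.21 and the synthase Ptges alike (0.11, interval -0.39 to 0.61).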

How the data were processed

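RNA of the cultures had been hybridised to Agilent 1-colour arrays of 62976 spots. Per the file headers, the deposited processed intensity of each spot was background-subtracted and detrended within its array, by Feature Extraction 10.7.3.1; the submitters' processing notes name version 12.5. The authors' series value table, deposited as log2 values, was not used, because its columns match the files of other samples. Of 59305 non-control spots, repeated spots were averaged to 55681 probes. Intensities were log2-transformed and centred on each array's 75th percentile. The 55681 probes were named from RefSeq (GRCm38.p6) by accession (27656), symbol (3401) or synonym (321). Another 1481 kept the file's name, and 22822 had none and stand for themselves. Probes flagged well above background on 3 or more M0 post-sepsis arrays or 3 or more M2 arrays were kept. M0 naive and M1 arrays did not enter this filter, so probes above background in those groups alone were not tested. The brightest probe stood for a gene, which left 29766 genes, 12891 of them single probes without a name.

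The limma package (3.58.1, in R 4.3.3) was fitted over the 16 marrow culture arrays, two-sided, with Benjamini-Hochberg adjustment at 0.05. Tables used Python 3.11.15, numpy 2.4.6 and pandas 2.3.3. Where 1 group was above background on no array, the fold is a bound ("at least") against the dimmest signals well above background. Such a gene passed the filter through the other group alone, and its p rests in part on signals not above background. On simulated data the test recovered 42 of 50 genes changed by 2 and 4 of 50 changed by 1 on the log2 scale, with 7 false calls. The simulated noise was independent between genes, while real arrays deviate in many genes at once, so the false calls do not measure the error rate here. Genes named by size of difference were taken among called genes whose arrays of the compared groups did not overlap. Others came from a list of 54 genes of known roles, and per list by the smallest p and by likeness. In all, 35 lists were used. The members and lists were chosen with earlier results of these data known. The number of arrays limits the precision. Replicate numbers did not pair the samples: deviations of same-numbered arrays correlated at 0.083, -0.416, 0.209 and -0.225. Between arrays of unlike number the correlations ran from -0.552 to 0.58. Deviations may thus be shared between groups in a way the numbers do not follow, which was not tested. Some list members are counted in the lists and not reported singly here. Alternatives changed the scaling, background correction, filter, probe summary, blocks, arrays fitted and variance model.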

Additional observations from a re-analysis of the deposited data

Results flagged for a closer look

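In the groups of 4 arrays of the 170 genes named, 340 in all, 14 arrays lay far from the other 3 by Dixon's test of the gap over the range, where chance flags about 1 in 20 groups. No named gene's call rests on any of them, since leaving out each array in turn ended no call of a difference among them. Of these, 2 were M0 post-sepsis replicate 2, each above its group. Stab1 was at 6.83 (others 6.34 to 6.42) and Usp18 at 0.94 (0.52 to 0.57). M2 replicate 2 lay below its group in 5 genes. Ccl12 was at 1.50 (others 1.66 to 1.69), Ccl7 at 4.29 (4.94 to 5.02), Chil4 at 4.05 (4.68 to 4.79), Dusp6 at -0.83 (-0.15 to -0.06) and Me1 at -1.48 (-1.10 to -1.05). M2 replicate 3 stood apart in 4 genes, lower in Ctsl at 9.16 (others 9.53 to 9.56), Fn1 at 6.13 (6.54 to 6.56) and Irf1 at 5.08 (5.21 to 5.23), and higher in Il10 at -3.60 (-4.11 to -4.08). M2 replicate 4 did so in 3 genes, higher in Abcg1 at 6.27 (others 5.96 to 5.97) and Psph at 0.88 (0.58 to 0.61), and lower in Alox5 at -4.10 (-3.55 to -3.46). Each of these levels is a log2 signal relative to the array's 75th percentile.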

How the results depend on the processing

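Over the 20 alternatives tried, none of the 170 named genes changed the direction of a called difference. With arrays centred on their median, 13 of them lost a call or their likeness within 2-fold, as given beside them; the cause was not tested. With that centring, 1798 genes were higher in M0 post-sepsis than in M2 cultures, 1236 differed between M0 post-sepsis and M0 naive and 1412 between M2 and M0 naive. With only the 8 arrays in the fit, which leaves fewer arrays to estimate the spread, 3283 genes passed, 1891 higher and 1392 lower. With normexp background correction 19083 genes lay within 2-fold, against 10943; this correction adds an offset of 50 to the signal. Quantile normalization called 7206 genes. Leaving out each array of the 2 groups in turn gave 4221 to 7592 calls, 2533 to 4804 of them higher and 1688 to 2788 lower, 9446 to 11596 genes within 2-fold, and 2989 to 3587 and 2438 to 4234 calls for M0 post-sepsis and for M2 against M0 naive. The replicate number as a block gave 5388 calls and changed none of the 170, and the numbers did not pair the samples. Within single slides, 61 of the called genes moved by more than the replicate SD in at least 1 slide. Likeness of Mrc1 and Il4ra within 2-fold was lost in 8 and 2 alternatives. For Mrc1 these included normexp background correction and the slide as a block. Of the 5657 calls, 3820 exceeded 2-fold. Genes not called are not shown to be alike.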
